A study of Mus musculus with 35 samples.

Results

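The complement system of the peritoneal macrophage was followed through 9 genes that were picked by their symbols: the 3 chains of C1q (C1qa, C1qb and C1qc), complement C3, factor B (Cfb), properdin (Cfp) and the receptors C3ar1, C5ar1 and Vsig4. They were 9 of the 32285 genes listed in the matrices of the lactate experiment and the technique comparison, and 9 of the 35624 symbols listed in the table of the AZD3965 experiment. All 9 had at least 10 counts over both groups in each of 4 comparisons, so that none was lost to the filter. The cells, 35 in all, were primary peritoneal macrophages of male C57BL/6 mice aged 6 months, washed out of the abdominal cavity, cultured for a day and freed of non-adherent cells, and each was sequenced as a library of its own. In the lactate experiment 8 cells were kept in 10 mM lactate over 72 h, and 8 control cells were kept without it. In the AZD3965 experiment 5 cells were given 10 mM lactate together with 300 nM AZD3965, an inhibitor of the lactate transporter MCT1 (the group lactate+AZD), and 5 cells were given lactate alone. The technique comparison held 4 lactate-treated cells processed by scMeT-seq, 3 lactate-treated cells lysed whole for SMART-seq2, and 2 control cells lysed whole. In scMeT-seq some cytoplasm is first drawn into a glass nanocapillary for mass spectrometry and what remains of the cell is then lysed, and the study describes its lactate and AZD3965 experiments as runs of that platform.

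Complement is a cascade of plasma and tissue proteins that tags microbes and dying cells. C1q, the recognition part of the classical pathway, is built from A, B and C chains, and tissue macrophages are its main source in the body. C3 is the protein on which all routes converge, factor B supplies the protease of the alternative pathway and properdin stabilises the enzyme that it forms with C3b. C3ar1 and C5ar1 bind the small fragments C3a and C5a that are released during activation. Vsig4, also called CRIg, binds C3b and iC3b on particles and marks resident macrophages of several tissues.

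Levels are given as CPM, the counts of a gene in every 1000000 counts of the cell or group. A summed level pools all cells of a group. Each log2 ratio of summed levels carries an exact 95% binomial interval. The intervals treat each read as a separate draw, and they hold no spread between cells or animals. Reads copied by PCR carry no molecular identifiers and are not separate molecules, so that the intervals are too narrow even for counting error. Neither the labels nor the study's methods say which animal or culture a cell came from. Each condition is therefore 1 sample, no difference has a replicate check, and no test between groups was run over cells. The total per cell was 289002 to 459859 counts in lactate cells and 269393 to 449735 in control cells of the lactate experiment. It was 58444 to 149792 in lactate+AZD cells and 90523 to 175450 in the lactate cells beside them. The technique comparison was deepest, with 519683 to 678618 counts in scMeT-seq cells, 494520 to 635694 in lactate-treated whole cells and 560859 to 851417 in control whole cells.

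The label macrophage was checked against 17 markers such as Lyz2, Cd68, Adgre1 and Csf1r. All but 1 cell held at least 15 of them at summed levels of 31914 CPM or more. The exception was CTL32, a control cell of the lactate experiment, in which the markers summed to 1312 CPM against 44575 CPM for 14 fibroblast markers. No control cell was lower than CTL32 in any of the 9 complement genes, which ran from 49.8 CPM of C3 down to no count of C5ar1 and Vsig4. In 3 further cells the fibroblast markers reached at least 10% of the macrophage markers, namely 17.1% in Lactic29, 26.4% in CTL30 and 55.8% in the lactate+AZD cell W14. T cell markers summed to at most 22.9 CPM in any cell and mesothelial markers to at most 528 CPM outside W14, which had 2093 CPM. B cell markers reached at most 247 CPM, dendritic cell markers 387 CPM and neutrophil markers 1703 CPM. Of the neutrophil markers, S100a9, Retnlg and Ly6g had no count in any cell. Results that rest on these cells are given with and without them.

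**Figure D1:**
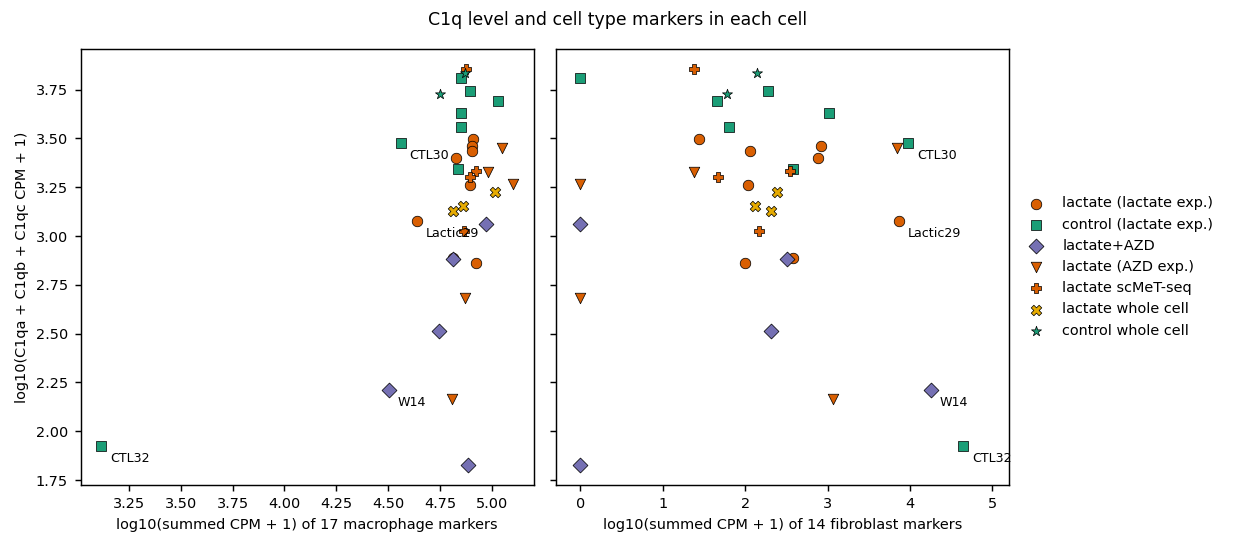
Each point is 1 of 35 cells. The horizontal axes give the log10 of the summed CPM, plus 1, of 17 macrophage markers (left) and 14 fibroblast markers (right), and the vertical axis gives the log10 of the summed CPM, plus 1, of C1qa, C1qb and C1qc. CTL32 stands alone at 1312 CPM of macrophage markers and at 44575 CPM of fibroblast markers, while low C1q levels also occur in AZD3965 table cells that are rich in macrophage markers.

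The genes of the C1q chains lie side by side on the minus strand of mouse chromosome 4 (GRCm38, GENCODE M21). C1qb spans 136880129 to 136886187, C1qc 136889804 to 136893065 and C1qa 136895917 to 136898803, a cluster of 18675 bases with gaps of 3616 and 2851 bases between neighbours. C3 lies on chromosome 17 from 57203970 to 57228136 with 42 merged exons, and Cfb on chromosome 17 from 34856374 to 34862518. Gm20547, a gene model on the same strand, holds 79.5% of the exonic bases of Cfb, so that reads of the pair cannot be told apart there and the Cfb level is uncertain. In the AZD3965 table Gm20547 had 98 counts beside 426 of Cfb. Cfp lies on chromosome X (20925454 to 20931555), as does Vsig4 (96247203 to 96293438), while C3ar1 lies on chromosome 6 (122847138 to 122856161) and C5ar1 on chromosome 7 (16246743 to 16259540).

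The sequences before the starts of C1qb, C1qc and C3 are shown because the C1q chains were lower under lactate in both experiments in which it was set against controls, whereas C3 went with the chains in one of them only. They come from RefSeq (GRCm38.p6), which had a start for 7 of the 9 genes, and run 5′ to 3′ on the minus strand up to the annotated start. For C1qc, whose GENCODE start lies outside the RefSeq one, only the 99 bases before the outermost GENCODE start are printed. Capitals mark matches on either strand to GAGGAA, the core bound by the myeloid factor PU.1, or to TTGCNNAA, a C/EBP-type motif.
C1qb (chr4:136886201-136886450): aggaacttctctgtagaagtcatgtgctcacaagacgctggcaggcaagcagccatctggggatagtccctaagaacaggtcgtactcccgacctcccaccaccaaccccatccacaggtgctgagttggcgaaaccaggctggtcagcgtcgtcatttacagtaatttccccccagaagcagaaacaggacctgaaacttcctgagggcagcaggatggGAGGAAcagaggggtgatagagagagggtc
C1qc (chr4:136893066-136893164): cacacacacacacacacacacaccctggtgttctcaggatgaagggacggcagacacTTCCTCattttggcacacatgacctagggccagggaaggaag
C3 (chr17:57228137-57228386): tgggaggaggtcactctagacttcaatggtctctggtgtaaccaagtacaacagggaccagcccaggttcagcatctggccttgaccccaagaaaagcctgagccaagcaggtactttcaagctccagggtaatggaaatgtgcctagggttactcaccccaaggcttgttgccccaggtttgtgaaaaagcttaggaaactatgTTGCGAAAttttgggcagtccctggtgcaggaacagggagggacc
GAGGAA occurred 30 bases before the RefSeq start of C1qb and, on the other strand, 193 bases before that of C1qc, and 2 times in the window of Vsig4. Among 32851 RefSeq promoters 23.3% held it within the same 250 bases. TTGCNNAA occurred 45 bases before the start of C3 and in none of the other 6 windows, against 9.6% of all promoters. TTCNNNGAA, a motif of STAT factors, was in none of the 7 windows and in 7.0% of all promoters. A match is a description of letters and not a binding site.

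The members did not move as a block in the lactate experiment. The C1q chains and Vsig4 were lower in lactate cells than in control cells, and Cfb and C3 were higher. Cfp, C3ar1 and C5ar1 were within 0.33 of 0 on the log2 scale with all cells. Without the cells rich in fibroblast markers Cfp stood at −0.55, C3ar1 at 0.11 and C5ar1 at −0.40. With a change of at least 2-fold as the mark, Cfb was the 1 member of 9 that was higher, as were 15.1% of the 11506 genes measured. C1qc and Vsig4 were the 2 members that were lower, as were 22% of all genes, so that both counts were close to the background. The median log2 ratio was −0.33 over the members and −0.09 over all genes. Without the cells rich in fibroblast markers (7 lactate and 6 control cells left) the median of the members was −0.55 and that of all genes 0.01.

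With AZD3965 on top of lactate, C1qa, C1qb, C1qc and Cfp were at least 2-fold lower and C3 was at least 2-fold higher. These 4 members of 9 stood beside 15.6% of 8764 genes that were lower, and the 1 member beside 24.9% that were higher. The median log2 ratio was −0.80 over the members and 0.17 over all genes, and −0.54 and 0.04 without W14. In the technique comparison C1qa, C1qc and C5ar1 were the 3 members at least 2-fold higher in scMeT-seq cells than in lactate-treated whole cells, against 21.7% of 9723 genes, and no member was 2-fold lower, against 20.6%. Its medians were 0.56 and 0.02. Among whole cells, 6 members were at least 2-fold lower under lactate, namely the C1q chains, Cfp, C3ar1 and C5ar1, against 27.6% of 9732 genes. No member was 2-fold higher, against 15.2%, and the medians were −1.49 over the members and −0.20 over all genes. The lactate-treated whole cells serve in both of these last comparisons.

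**Figure D2:**
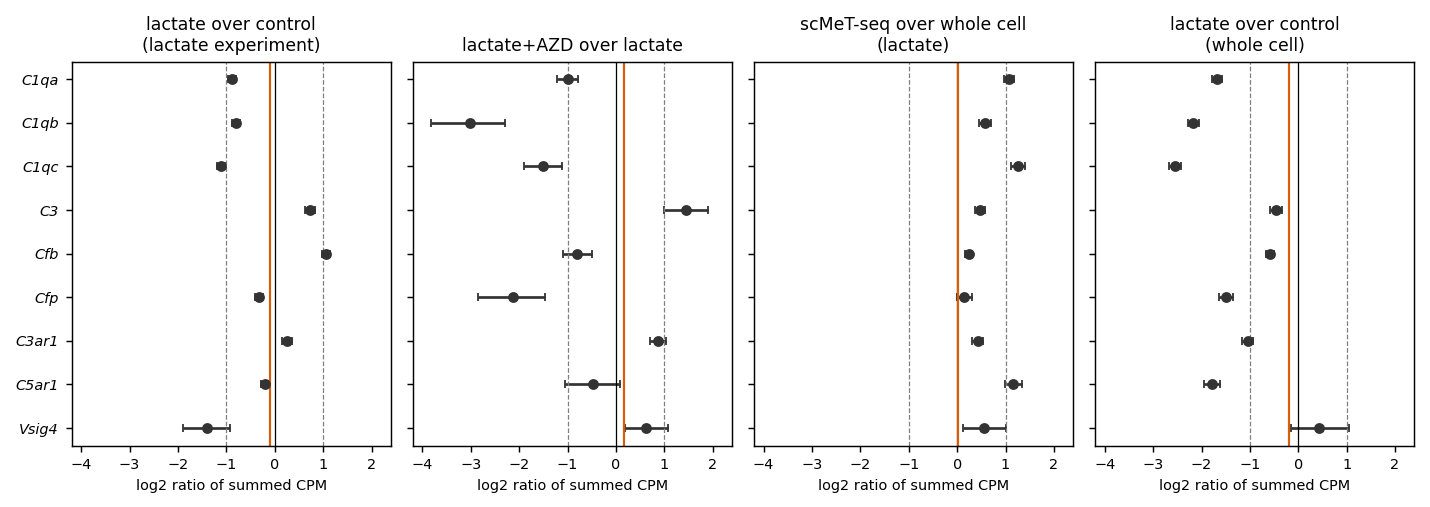
Each point gives the log2 ratio of the summed CPM of 1 complement gene (rows) in 4 comparisons (panels), with its 95% counting interval. The dashed lines mark 2-fold and the orange line the median of all genes measured. The C1q chains lie left of 0 in the lactate, AZD3965 and whole-cell panels and right of it in the technique panel, with C1qb at −3.01 in lactate+AZD cells as the lowest point.

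C1qa encodes the A chain of C1q. In the lactate experiment its lowest, median and highest values were 211, 879 and 1138 CPM in lactate cells, against 22.2, 1418 and 2506 CPM in control cells. All 8 lactate cells were below the median of the control cells, and 5 of 8 control cells were above every lactate cell, while CTL32 was below all. The summed level was 744 CPM in lactate cells and 1373 CPM in control cells, a log2 ratio of −0.88 (−0.96 to −0.81). Without CTL32 it was −1.07 and past 2-fold, and without the cells rich in fibroblast markers −1.05.

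C1qb, the B chain, ran from 41.5 through a median of 799 to 1110 CPM in lactate cells and from 33.2 through 1329 to 1785 CPM in control cells. Its summed level was 661 CPM against 1154 CPM, 1.75-fold lower under lactate, with a log2 ratio of −0.80 (−0.89 to −0.72). The C chain, C1qc, had 184, 569 and 1037 CPM as lowest, median and highest values in lactate cells and 27.7, 1115 and 2126 CPM in control cells. Its log2 ratio of −1.11 (−1.19 to −1.03) was the lowest of the chains. It was −0.99 without Lactic27, −0.95 without Lactic33 and −0.91 without CTL28, which puts it inside 2-fold. Without the cells rich in fibroblast markers C1qb stood at −0.99 and C1qc at −1.28. For both chains every lactate cell lay under the control median, but the ranges overlapped.

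The contrast of lactate with control among whole cells used other cells and gave the chains at lower ratios. C1qa had 698, 597 and 661 CPM in the 3 lactate cells against 2322 and 1696 CPM in the 2 control cells. C1qb had 653, 369 and 499 CPM under lactate against 2481 and 1872 CPM in controls. C1qc had 334, 382 and 269 CPM under lactate against 2012 and 1763 CPM in controls. No chain overlapped between the groups. The log2 ratios were −1.68 (−1.78 to −1.58) for C1qa, −2.17 (−2.28 to −2.06) for C1qb and −2.55 (−2.68 to −2.42) for C1qc. Of all 9 members 6 did not overlap and were lower under lactate (the chains, C3, C3ar1 and C5ar1), and 15.4% of the 9732 genes did likewise. With any 1 of these 5 cells left out the chains stayed between −1.39 and −2.69. Markers of large peritoneal macrophages (Gata6, Timd4 and 6 others) summed to 385 to 1276 CPM in the lactate cells and to 1444 and 7064 CPM in the control cells, and their part in these ratios was not tested.

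With AZD3965 the chains were lower than with lactate alone, and uneven between cells. C1qa had 581, 855, 70.7, 257 and 22.1 CPM in the lactate+AZD cells T10, W10, W14, F8 and F9, against 50.3, 1351, 1326, 432 and 1061 CPM in the lactate cells T11, T13, W5, W20 and F18. All 5 lactate+AZD cells lay under the lactate median, with overlap of the ranges. The log2 ratio of −1.0 (−1.22 to −0.78) sat on the 2-fold mark. It was −1.69 without W10, and inside 2-fold without W14 or T13 (−0.66 each), F9 (−0.77), W5 (−0.78), F8 or F18 (−0.94 each). C1qb was counted in T10 (92.1 CPM) and W14 (28.3 CPM) and had no count in the other 3 lactate+AZD cells, where 0 counts allow up to 20.0, 51.3 and 33.2 CPM. The lactate cells held 325, 547 and 442 CPM of C1qb in T13, W5 and F18 and no count in T11 and W20. The summed ratio was 29.2 CPM against 236 CPM, 8.06-fold lower and a log2 ratio of −3.01 (−3.82 to −2.29), which rests on 17 and 170 counts and was −4.70 without T10.

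C1qc had 92.1, 294, 63.6, 68.4 and 44.3 CPM in the lactate+AZD cells and 94.2, 462, 937, 49.3 and 342 CPM in the lactate cells, in the same order of names. The log2 ratio was −1.50 (−1.90 to −1.12) with −0.85 without W5 and −2.38 without W10. All 5 lactate+AZD cells were again under the lactate median. Cell names of this table begin with T, W or F in both groups, and the labels do not say what the letters stand for. Within the letters the log2 ratios were −0.33, −0.82 and −3.21 for C1qa, −0.89, −4.17 and −4.45 for C1qb and −1.64, −1.31 and −2.67 for C1qc, all lower in lactate+AZD cells, where the F value of C1qb is a bound, computed with 3 counts in place of 0.

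Between techniques the higher C1qb and C1qc levels of scMeT-seq cells rested on a single cell. C1qa had 603, 2426, 1621 and 1042 CPM in scMeT-seq cells Lactic13, Lactic14, Lactic16 and Lactic17, against 698, 597 and 661 CPM in lactate-treated whole cells. C1qb had 190, 2199, 342 and 500 CPM in the same scMeT-seq cells and C1qc 265, 2527, 179 and 470 CPM, against 369 to 653 and 269 to 382 CPM in whole cells. The log2 ratios of 1.07 for C1qa (0.98 to 1.17), 0.58 for C1qb (0.46 to 0.70) and 1.26 for C1qc (1.12 to 1.40) became 0.73, −0.52 and −0.076 without Lactic14. C1qa was also inside 2-fold, at 0.98, without Lactic16. With the 2 control whole cells added to the 3 lactate-treated ones, they were 0.086, −0.78 and −0.41. Lactic14 had 74580 CPM of macrophage markers, within the 73005 to 83820 CPM of its group.

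**Figure D3:**
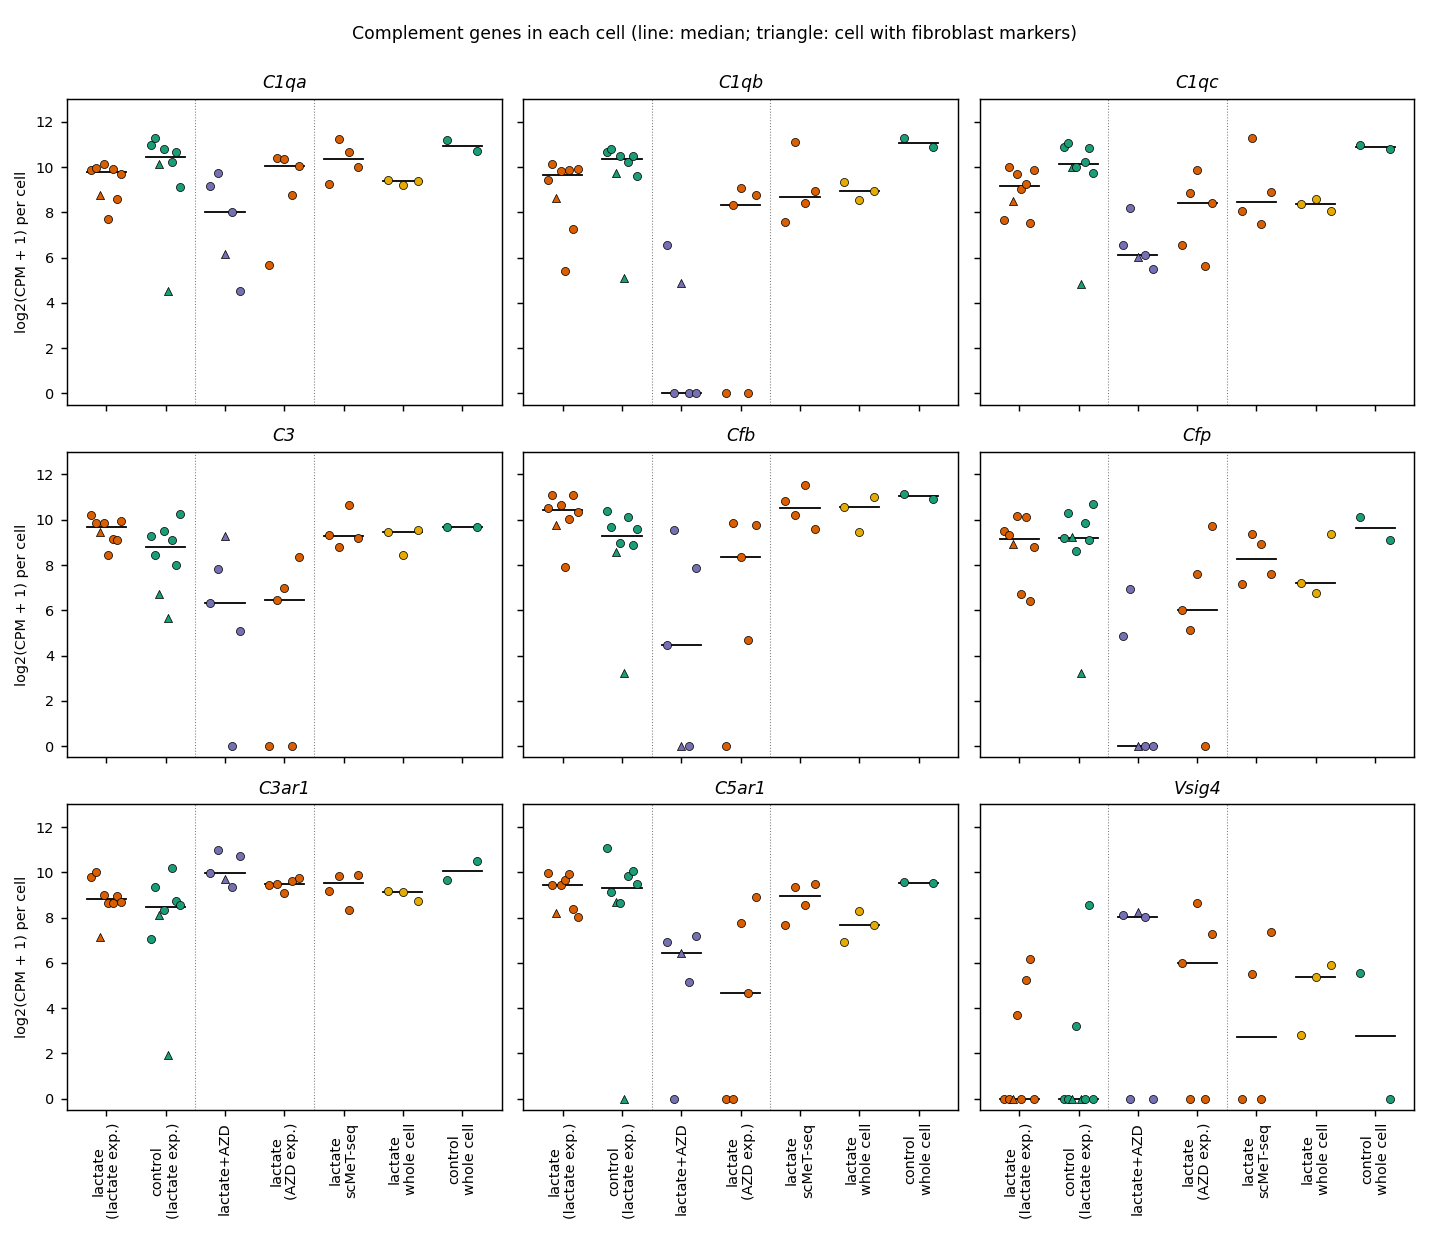
Each panel shows 1 complement gene, each point 1 cell, as log2(CPM + 1), with a line at the group median and triangles for the 4 cells rich in fibroblast markers. Dotted lines part the lactate, AZD3965 and technique experiments. The median lines of the C1q chains are lower in lactate than in control cells of both experiments, points on the lower edge are cells with no count, and Vsig4 is at 0 in most cells of the lactate experiment.

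Summed over the cells of a group, the chains took shares of like size of the raw counts in the lactate experiment. Raw counts are not set per length, and per kilobase of exon the share of C1qc was 18.5% in lactate cells and 21.4% in control cells. Of all C1q counts, C1qa, C1qb and C1qc took 37.5, 33.3 and 29.3% in lactate cells and 36.3, 30.5 and 33.1% in control cells of the lactate experiment. C1qb took 5.36% in Lactic31, the lowest share in that experiment, where C1qc took 67.4%. Control whole cells had 33.3, 36.0 and 30.7%, and lactate-treated whole cells had 44.1, 33.7 and 22.2%. In scMeT-seq cells of the technique comparison C1qa took 33.9 to 75.7% and the summed share was 47.3%.

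In the AZD3965 table the balance was tilted to C1qa. It took 72.3% of 328 C1q counts in lactate+AZD cells (exact binomial interval 67.1 to 77.0%) and 57.8% of 1018 in lactate cells (54.7 to 60.8%). Over single cells the C1qa share ran from 33.3 to 79.0% in lactate+AZD cells and from 34.8 to 89.7% in lactate cells, so that the ranges overlapped. C1qb took 5.18% in lactate+AZD cells (3.05 to 8.17%) and 16.7% in lactate cells (14.5 to 19.1%). With each cell left out in turn its share lay between 1.82 and 10.9% in lactate+AZD cells and between 15.1 and 18.1% in lactate cells. This table is the shallowest and was deposited with another gene list, and their part in the share was not tested. Per kilobase of exon, C1qa stood at 715, C1qb at 607 and C1qc at 301 CPM in lactate cells of the lactate experiment, and at 1321, 1061 and 649 CPM in control cells. The lengths take in every annotated exon of a gene, which gives 1040, 1088 and 1931 bases in the same order. Which transcripts the cells made was not tested, so that a comparison between chains depends on these lengths.

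**Figure D4:**
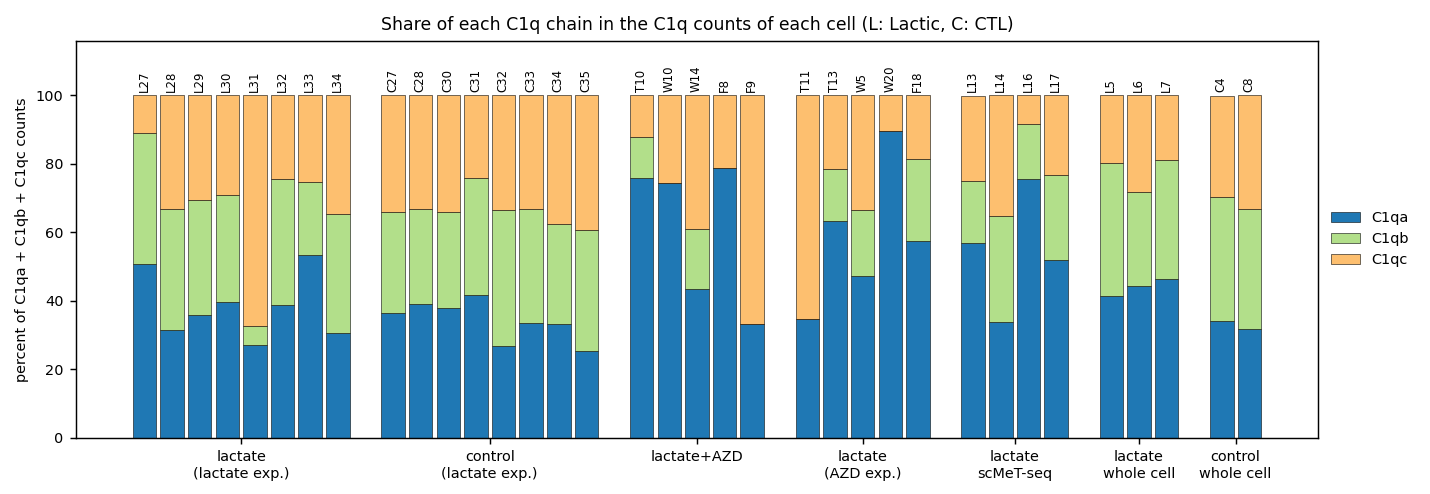
Each bar is 1 cell, and its colours give the percent of the summed C1qa, C1qb and C1qc counts that each chain takes (vertical axis). Bars of control cells of the lactate experiment hold 27.8 to 40.0% C1qb, while 3 of 5 lactate+AZD cells and 2 of 5 lactate cells of the AZD3965 experiment show no C1qb, and Lactic31 has 67.4% C1qc.

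C3, the central component, was higher under lactate in the lactate experiment. Lowest, median and highest values were 343, 816 and 1176 CPM in lactate cells and 49.8, 451 and 1232 CPM in control cells. Of 8 lactate cells, 7 exceeded the control median, and the control cell CTL35 exceeded all lactate cells. The summed level was 771 CPM against 466 CPM, a log2 ratio of 0.72 (0.63 to 0.82), with 1.05 without CTL35 and 0.38 without the cells rich in fibroblast markers. Whole cells had 708, 346 and 746 CPM under lactate and 823 and 813 CPM in controls, a ratio in the other direction of −0.46 (−0.59 to −0.34). The difference between these 2 contrasts was not tested.

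With AZD3965, C3 had 77.9, 227, 622, 0 and 33.2 CPM in T10, W10, W14, F8 and F9, against 0, 85.5, 127, 0 and 331 CPM in T11, T13, W5, W20 and F18. The cell W14, rich in fibroblast markers, held 64.7% of the C3 counts of its group. The log2 ratio of 1.44 (1.00 to 1.90) was 0.34 without it and 2.20 without F18. Within the letters T, W and F it was 0.80, 2.86 and −4.04, the F value from 3 against 30 counts. The ranges of the groups overlapped. Between techniques C3 had 636, 441, 1614 and 594 CPM in scMeT-seq cells, against 708, 346 and 746 CPM in lactate-treated whole cells, with a log2 ratio of 0.47 (0.36 to 0.58) and −0.07 without Lactic16.

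Cfb, the factor B gene, was the member with the largest summed level in lactate cells of the lactate experiment, though CPM is not set per length. It had 242, 1379 and 2158 CPM as lowest, median and highest values there, against 8.30, 637 and 1359 CPM in control cells. Of 8 lactate cells, 4 were above every control cell. The summed level was 1399 CPM against 670 CPM, a log2 ratio of 1.06 (0.99 to 1.14). Leaving out Lactic28 gave 0.94, Lactic33 0.93, CTL30 0.97 and CTL32 0.88, so that 4 cells each decide whether it passes 2-fold, and the value without the cells rich in fibroblast markers was 0.83. In whole cells the direction was the opposite, with 1519, 700 and 2036 CPM under lactate against 2259 and 1949 CPM in controls and a log2 ratio of −0.59 (−0.67 to −0.51), or −1.0 without Lactic7, and this difference between contrasts was not tested either.

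In lactate+AZD cells Cfb was found at 21.2, 741 and 232 CPM in T10, W10 and F9 and had no count in W14 and F8. The lactate cells held 940, 322, 24.7 and 873 CPM in T13, W5, W20 and F18 and none in T11. The log2 ratio of −0.80 (−1.10 to −0.50) was −2.86 without W10, −1.16 without T11, −1.15 without W20 and 0.0073 without T13. Within the letters it was −4.54 for T (3 counts in T10) and −2.63 for F, but 1.26 for W, and the groups overlapped. Between techniques the values were 1828, 1197, 2943 and 779 CPM in scMeT-seq cells and 1519, 700 and 2036 CPM in whole cells, and the log2 ratio was 0.24 (0.17 to 0.31). Its direction turned without Lactic16 (−0.17), without Lactic6 (−0.11) and with all 5 whole cells (−0.052).

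Cfp encodes properdin. Its medians in the lactate experiment were 565 CPM in lactate cells (83.8 to 1135 CPM) and 590 CPM in control cells (8.30 to 1668 CPM), with 4 lactate cells on either side of the control median. The log2 ratio was −0.33 (−0.42 to −0.24), and −0.55 without the cells rich in fibroblast markers. Whole cells had 148, 109 and 654 CPM under lactate and 1128 and 546 CPM in controls. That log2 ratio was −1.49 (−1.64 to −1.35), with −0.77 without CTL4 and −2.83 without Lactic7. In lactate+AZD cells it was found in T10 at 28.3 CPM and in W10 at 120 CPM only, against 62.8, 34.2, 195 and 851 CPM in T11, T13, W5 and F18 and no count in W20. The log2 ratio of −2.13 (−2.85 to −1.46) was −4.15 without W10 and −0.82 without F18, the cell that held 77 of the 119 counts of the lactate group. Within the letters T, W and F it was −0.76, −0.51 and −5.40, the F value being a bound computed with 3 counts in place of 0. Between techniques it was 0.15 (−0.01 to 0.30), from 141, 670, 483 and 194 CPM in scMeT-seq cells and 148, 109 and 654 CPM in whole cells. It was 1.48 without Lactic7, but −0.25 without Lactic14, −0.29 without Lactic6, −0.13 without Lactic5, −0.039 without Lactic16 and −0.71 with all 5 whole cells.

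C3ar1, the C3a receptor, was counted in every cell of the AZD3965 experiment. It had 1006, 2016, 827, 650 and 1715 CPM in the lactate+AZD cells and 704, 707, 547, 777 and 851 CPM in the lactate cells. Of 5 lactate+AZD cells, 3 were above every lactate cell, and the log2 ratio was 0.87 (0.70 to 1.03). It was 1.03 without W14 and 0.56 without W10, and within the letters T, W and F it was 0.51, 1.10 and 0.61, higher in lactate+AZD cells each time. In the lactate experiment C3ar1 ran from 140 through 457 to 1042 CPM in lactate cells and from 2.77 through 351 to 1155 CPM in control cells, with a log2 ratio of 0.25 (0.15 to 0.36), and of 0.11 without the cells rich in fibroblast markers. With single cells left out it ran from 0.03 (Lactic28) to 0.71 (CTL33), and the difference of mean log2(CPM + 1) was 1.08. Whole cells had 576, 555 and 426 CPM under lactate and 807 and 1451 CPM in controls. Their log2 ratio of −1.05 (−1.17 to −0.93) was −0.91 without Lactic7 and −0.65 without CTL8. Trimmed-mean (TMM) scaling, which moved all ratios of that comparison by 0.19 and those of the AZD3965 experiment by −0.16, gave −0.86. Between techniques C3ar1 had 571, 929, 326 and 946 CPM in scMeT-seq cells and 576, 555 and 426 CPM in whole cells, and a log2 ratio of 0.43 (0.31 to 0.55), which was 0.21 without Lactic17 and −0.14 with all 5 whole cells.

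C5ar1, the C5a receptor, had 261, 698 and 1008 CPM as lowest, median and highest values in lactate cells and 0, 637 and 2134 CPM in control cells of the lactate experiment. The log2 ratio of −0.20 (−0.29 to −0.11) was 0.11 without CTL27, the highest cell, and −0.40 without the cells rich in fibroblast markers. The difference of mean log2(CPM + 1) was 0.77, in the other direction. CTL32 had no count, and its part in that difference was not tested. In whole cells C5ar1 was at 121, 309 and 206 CPM under lactate against 755 and 744 CPM in controls, with no overlap and a log2 ratio of −1.78 (−1.96 to −1.61). Lactate+AZD cells held 120, 84.9, 34.2 and 144 CPM in T10, W14, F8 and F9 and none in W10. The lactate cells held 217, 24.7 and 475 CPM in W5, W20 and F18 and none in T11 and T13, so that the groups overlapped. The interval of the log2 ratio of −0.48 (−1.05 to 0.08) held 0, the value without F18 was 0.53 and the difference of mean log2(CPM + 1) was 0.86. Within the letters T, W and F the ratio was 3.75, −1.44 and −2.24, the T value being a bound computed with 3 counts in place of 0. Between techniques C5ar1 had 204, 662, 381 and 716 CPM in scMeT-seq cells against 121, 309 and 206 CPM in whole cells. Its log2 ratio of 1.16 (0.99 to 1.33) was 0.87 without Lactic17, 0.93 without Lactic5 and 0.096 with all 5 whole cells.

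Vsig4 was the member with the most cells at 0, and its groups overlapped in all 4 comparisons. In the lactate experiment 3 of 8 lactate cells had counts, at 11.9, 37.0 and 72.1 CPM, and 2 of 8 control cells, at 8.24 CPM in CTL31 and 382 CPM in CTL34. The log2 ratio of −1.40 (−1.89 to −0.93) rests on CTL34, which held 130 of 133 control counts, and it was 3.89 without that cell and −2.49 without Lactic33. In the AZD3965 experiment T10, W14 and F8 had 276, 304 and 257 CPM and W10 and F9 none, against 62.8, 405 and 155 CPM in T11, W5 and F18 and none in T13 and W20. The log2 ratio was 0.62 (0.18 to 1.07), with 2.03 without W5, 1.05 without W10 and 0.18 without W14. Within the letters it was 3.21 for T, −0.31 for W and −0.62 for F. Whole cells had 6.07, 40.8 and 58.2 CPM under lactate and 45.8 and 0 CPM in controls, and scMeT-seq cells of the technique comparison had 44.3 CPM in Lactic14, 164 CPM in Lactic17 and none in Lactic13 and Lactic16. The log2 ratios were 0.43 (−0.16 to 1.05) under lactate and 0.56 (0.12 to 1.01) between techniques. The value under lactate was 2.80 without CTL4, −0.13 without Lactic7 and −0.30 without CTL8. That between techniques was −1.51 without Lactic17 and 1.12 without Lactic7, and the difference of mean log2(CPM + 1) was −1.48.

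Set per kilobase of exon, C1qa had the highest summed level of the members in every group except control whole cells, where C1qb was at 2058 and C1qa at 1994 CPM per kilobase. Vsig4 was the lowest in both groups of the lactate experiment and in all groups of the technique comparison, at 11.5 to 37.0 CPM per kilobase. Neighbours in the order of levels overlapped in their ranges over cells throughout the lactate and AZD3965 experiments and in scMeT-seq cells of the technique comparison. In lactate-treated whole cells C3ar1, at 119 CPM per kilobase, lay wholly under C1qc at 169, and Vsig4, at 25.1, wholly under C5ar1 at 84.8. In control whole cells, a group of 2 cells, C1qc, Cfb, Cfp, C5ar1, C3 and Vsig4 each lay wholly under the gene above them in the order.

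Over the 25 cells of the lactate experiment and the technique comparison, with log2(CPM + 1) centred in each group, Spearman's rho was 0.89 between C1qa and C1qb, 0.83 between C1qb and C1qc and 0.78 between C1qa and C1qc. Over the 22 cells left without those rich in fibroblast markers these pairs had 0.87, 0.73 and 0.63. Between C3 and Cfb it was 0.76, or 0.55 over the 22 cells. Cfp had 0.56 with C1qa, 0.60 with C1qb and 0.41 with C1qc, or 0.60, 0.57 and 0.275 over the 22 cells. C3 had 0.34 with C1qa, 0.33 with C1qb and 0.06 with C1qc, or 0.11, 0.15 and −0.30 over the 22 cells. The animal and culture of these cells are not given, so that the values are descriptions.

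Among 7632 other genes with counts in at least 50% of these cells, Grn (progranulin, a lysosomal protein), Smpdl3a and Man2b1 (lysosomal alpha-mannosidase) were most like the summed C1q chains, with rho of 0.80, 0.79 and 0.79. Without the cells rich in fibroblast markers the values were 0.83, 0.65 and 0.69, and Grn stayed at rank 1 while Smpdl3a was at rank 16 and Man2b1 at rank 7. Most like C3 were Fdps (farnesyl diphosphate synthase of the cholesterol pathway) at 0.83, Unc50 at 0.76 and Tmod3 (a cap of actin filaments) at 0.74, and at 0.75, 0.73 and 0.66 without those cells, where they held ranks 2, 3 and 12.

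The wider system was read from 44 other complement genes. In the lactate experiment 20 of them were measured, none was at least 2-fold higher, against 15.1% of all genes, and 9 were at least 2-fold lower, against 22%. Among the 9 were 6 of 7 regulators, of which some rest on the cells rich in fibroblast markers. CTL30 and CTL32 held 19 and 48 of the 67 control counts of Serping1 and 29 and 6 of the 43 of Cd55, and without the cells rich in fibroblast markers both genes had fewer than 10 counts and Cd46 stood at −0.44. No gene of the terminal pathway and not the alternative pathway protease Cfd reached 10 counts in any comparison. Clu (clusterin, an inhibitor of the terminal complex) had a log2 ratio of −3.05, but 1557 of the 2124 counts came from CTL31, and it was −0.73 without that cell and −5.00 without Lactic31. Cr1l, the rodent regulator Crry, was at 73.0 CPM in lactate cells and 151 CPM in control cells, a log2 ratio of −1.05 that was −0.88 without Lactic27. C1ra, a protease of the C1 complex, stood at −1.23, and at −0.80 without CTL31. Cd59a, which blocks the membrane attack complex, stood at −3.45 with 9 against 95 counts, at −2.73 without CTL30, at −4.82 without Lactic28 and at −1.91 without the cells rich in fibroblast markers. C1ra and the C4b gene named further on have close copies in the mouse genome, C1rb and C4a, so that their counts are uncertain.

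In the AZD3965 experiment 18 of the other complement genes were measured, with 5 at least 2-fold higher in lactate+AZD cells, against 24.9% of all genes, and 1 lower, against 15.6%. All 262 counts of Clu, 115 of Cd55 (decay-accelerating factor) and 57 of C1s1 (a C1 protease) were in W14, the cell rich in fibroblast markers, and the lactate cells had none. Against a floor of 3 counts over the group they were at least 108-fold, 47.5-fold and 23.6-fold higher, and without W14 there was no count in either group. Serping1, the C1 inhibitor, was at 119 CPM against 12.5 CPM, a log2 ratio of 3.25 that became −0.87 without W14 and 4.54 without W5. The fifth higher gene, C1ra, was named after its values were seen. It had 34 counts against 2, with 8 in T10, 16 in W14 and 10 in F9, a log2 ratio of 4.40 (2.43 to 7.50) that was 3.88 (1.82 to 7.03) without W14. Itgax, likewise named afterwards, stood at 0.82, and at 1.22 without W14, which held none of its counts. T10 held 126 of its 171 counts in lactate+AZD cells, at 892 CPM. W10, F8 and F9 had 73.4, 103 and 310 CPM, against 346, 239 and 142 CPM in the lactate cells T11, T13 and W20. The groups overlapped, and the ratio without T10 is not given.

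Between techniques 13 of the other genes were measured, with 3 at least 2-fold higher in scMeT-seq cells, against 21.7% of all genes, and none lower, against 20.6%. Colec12, a collectin of the cell surface, stood at 442 CPM in scMeT-seq cells and 103 CPM in lactate-treated whole cells, with 695 of 1258 counts in Lactic13 and a log2 ratio of 2.10 that was 1.04 without it and 2.96 without Lactic6. Cd46 with 11 counts against 0 was at least 2.62-fold higher, but inside 2-fold without Lactic13 (log2 ratio 0.69). Cd55 had 10 counts against 1, a log2 ratio of 2.84 (0.02 to 8.28) that was 0.60 without Lactic7. Under lactate in whole cells 13 were measured, 4 at least 2-fold lower and 1 higher, against 27.6% and 15.2% of all genes. C4b, the mouse C4 gene, was at 159 CPM under lactate and 569 CPM in controls, a log2 ratio of −1.84 that stayed between −2.11 and −1.28 with each cell left out. Colec12 stood at −1.59, at −0.67 without CTL4 and at −2.46 without Lactic6. C2 had 2 counts against 12, all of these in CTL4, and a log2 ratio of −2.89 (−6.09 to −0.72). Itgax, a chain of complement receptor 4, was the 1 gene that was higher, at 108 CPM against 21.95 CPM. Its log2 ratio was 2.30 (1.75 to 2.90), with 1.68 without CTL4 and 2.94 without CTL8. Lactic6 and Lactic7 had 129 and 173 CPM and Lactic5 no count, against 14.1 CPM in CTL4 and 33.9 CPM in CTL8, so that the groups overlapped.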

How the data were processed

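Each of 35 labelled macrophages was 1 Smart-seq2 library. The authors used fastp for trimming, HISAT2 with mm10 for alignment and StringTie for quantification, and the deposited values are raw counts, in which PCR copies are included. No column of a cell was left unmatched to a sample.

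CPM, summed-count log2 ratios, exact binomial intervals and Spearman correlations came from Python 3.11.15 (scipy 1.17.1, pandas 2.3.3, numpy 2.4.6), and TMM factors from R 4.3.3 (edgeR 4.0.16). Genes needed 10 counts over both groups, and a group at 0 was set to 3 counts. No test between groups was run over cells. The ratio script was tested on simulated data.

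The members and lists were chosen with earlier results of these data known. Named were all members, up to 4 other complement genes per comparison with the most counts among those past 2-fold, and the 3 genes most like C1q and C3. Alternatives were TMM, mean per-cell CPM, mean log2(CPM + 1), filters of 100 and 1 counts, leaving out fibroblast-marker cells or single cells, all 5 whole cells and, chosen after seeing the data, ratios within name letters.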

Additional observations from a re-analysis of the deposited data

Results flagged for a closer look

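In each group of 4 to 8 cells the highest and lowest CPM of a member were set against the other cells by Dixon's criterion at 95%, and 7 of 45 sets held a cell that stood apart. Chance gives about 1 in 20 only where values are independent and normally distributed. These sets include cells with no count, and the same cells enter the sets of several genes. The count of 7 in 45 is therefore a description, and whether it exceeds chance cannot be judged from that rate. In the technique comparison the scMeT-seq cell Lactic14 stood apart with 2199 CPM of C1qb (next 500 CPM in Lactic17) and 2527 CPM of C1qc (next 470 CPM), and Lactic16 with 1614 CPM of C3 (next 636 CPM in Lactic13). The lactate+AZD cell W10 stood apart with 294 CPM of C1qc and 120 CPM of Cfp (next 92.1 and 28.3 CPM, both in T10). F18, a lactate cell of the AZD3965 experiment, had 851 CPM of Cfp (next 195 CPM in W5). CTL34, a control cell, had 382 CPM of Vsig4 (next 8.24 CPM in CTL31).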

How the results depend on the processing

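Of 549 log2 ratios of single members under the alternatives, 524 kept their sign and 491 their side of the 2-fold mark; within name letters, added after seeing the data, 22 of 27 kept their sign and 12 their side. On the scale of mean log2(CPM + 1), 3 members were at least 2-fold higher and 0 lower under lactate, 1 higher and 1 lower in scMeT-seq cells, and 1 higher under lactate in whole cells. CTL32, below which no control cell of the lactate experiment lay in any member, was kept on that scale. Its part in the counts under lactate was not tested. Without the cells rich in fibroblast markers 0 members were 2-fold higher under lactate, by the ratio of mean per-cell CPM 0 were higher with AZD3965, and with all 5 whole cells pooled 0 were higher in scMeT-seq cells. These 5 include the control whole cells, so that technique and lactate cannot be told apart in that alternative. With each cell left out the counts ran from 0 to 2 higher and 1 to 3 lower under lactate, from 1 to 2 higher and 2 to 5 lower with AZD3965, from 1 to 5 higher and 0 to 1 lower in scMeT-seq cells, and from 0 to 1 higher and 5 to 6 lower under lactate in whole cells. Among members past 2-fold, signs turned for Vsig4 under lactate (0.42 on the mean log scale and 3.89 without CTL34, which also bounds its leave-one-out range of −2.49 to 3.89), for C3 with AZD3965 (−4.04 within F, where the lactate+AZD cells hold 3 counts) and for C1qc in scMeT-seq cells (−0.41 with all 5 whole cells and −0.076 without Lactic14, in a range to 1.58). The other turned signs, given beside each gene, belong to members inside 2-fold. Apart from cells left out, the causes were not tested. No paired analysis was possible because each condition is 1 sample and the values come from no test. Depth limits the AZD3965 experiment, where 3 counts are 5.16 CPM in the lactate+AZD group and 4.16 CPM in its lactate group.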

Other observations

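The low counts of the AZD3965 table are unlike those of the other cells. There, 6215 entries equal 2 and 1914 equal 1, while in the matrices of the other 25 cells 8655 entries equal 2 and 17133 equal 1. The small counts of C1qb, Cfp and C5ar1 in the AZD3965 experiment are therefore read with this pattern beside them, and its part in their ratios was not tested.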
